A study of Mus musculus with 24 samples.

Results

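The comparison set CD4+CD8low thymocytes that were meeting their antigen (S-) against CD4+CD8+ thymocytes that had not yet been selected (PreS), both on the B10 background. It took in every B10 array whose title names a single positive population of double transgenic mice (3 arrays, S-) and every B10 array titled as a double positive population (6 arrays, PreS), which is 9 of the 24 arrays of the series. The mice of the B10 arrays were all females of 6 to 8 weeks on the C57BL10.H2k (B10) background. They carried the 3A9 TCR transgene, whose product recognises a hen egg lysozyme (HEL) peptide. The S- cells came from TCR insHEL mice, in which HEL is also made under the insulin promoter, a promoter that is active in thymic medullary epithelium as well as in the pancreas. The 6 PreS pools, 3 from TCR insHEL mice and 3 from TCR mice, were merged, as the paper merged them. A limma contrast of these 2 genotypes called 0 probesets after Benjamini-Hochberg adjustment (288 at an unadjusted p under 0.05). With 3 arrays of each it cannot show that the genotypes are alike. S- cells were sorted as CD4+CD8lowCD69+1G12+ and PreS cells as CD4+CD8+CD69-1G12-, where 1G12 binds the 3A9 clonotype, in the presence of actinomycin D and alpha-amanitin, which block transcription during the sort. S+ cells, given below for some genes beside S-, passed the same gate as S- but came from TCR mice without HEL (3 arrays). The 12 NOD arrays, used below to compare the strains, hold the same populations. They came from female TCR and TCR insHEL mice of the same ages on the NOD.H2k background. Each array held an independent pool of sorted cells, amplified through 2 rounds of in vitro transcription and hybridized to an Affymetrix 430A array. The signals are the deposited MAS 5.0 values, scaled by the authors to a trimmed mean of 150 per array.

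A CD4+CD8+ thymocyte of the cortex, which has passed the check of its beta chain and divided, rearranges its receptor alpha chain genes, and then waits for a signal through its new receptor. A weak signal leads to positive selection, loss of one coreceptor, entry to the medulla and maturation. A strong signal from a self antigen leads to clonal deletion or diversion, and is carried by calcium, MAP kinase and NF-kB pathways to a set of immediate and later target genes that includes the death gene Bcl2l11 (Bim).

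Of 7831 genes with 1 symbol and a signal over the low-signal limit, represented by the brightest probeset of each, limma called 394 higher in S- (5.03% of the genes) and 575 lower (7.34%) at an adjusted p under 0.05. Over all 12838 kept probesets the calls were 567 higher (4.42%) and 873 lower (6.80%). With the authors' scaling only, in place of bringing each log2 array to a common mean and variance, these became 727 and 703, so that 50.8% of the calls were higher against 39.4% in the main setting, and the median of all probesets stood at 0.09. Without regard to a test, the 3 S- values on the standardized log2 scale lay above all 6 PreS values for 634 genes (8.10%) and below them for 833 genes (10.6%). By pool, the called probesets, which the call itself selects for a steady difference, had medians over the PreS mean of 1.26, 1.34 and 1.27 on the log2 scale for those higher and -1.12, -1.28 and -1.20 for those lower in S- replicates 1, 2 and 3. Correlations of log2 signals ran from 0.928 to 0.964 among S- arrays, 0.918 to 0.958 among PreS arrays and 0.856 to 0.899 between S- and PreS arrays. The arrays were hybridized on several days, and only 1 day held both groups (S- replicate 1 and PreS TCR insHEL replicate 1), so the difference between these 2 arrays, called the same-day difference below, is the only within-day value. With the day as a fixed block, 154 probesets were higher and 147 lower, and 55 of the 111 called genes named here kept their call, while all 111 kept their sign when the same probeset was fitted under every alternative tried. As these are mixtures of cells, fewer cells of a type and less RNA per cell cannot be told apart.

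**Figure D1:**
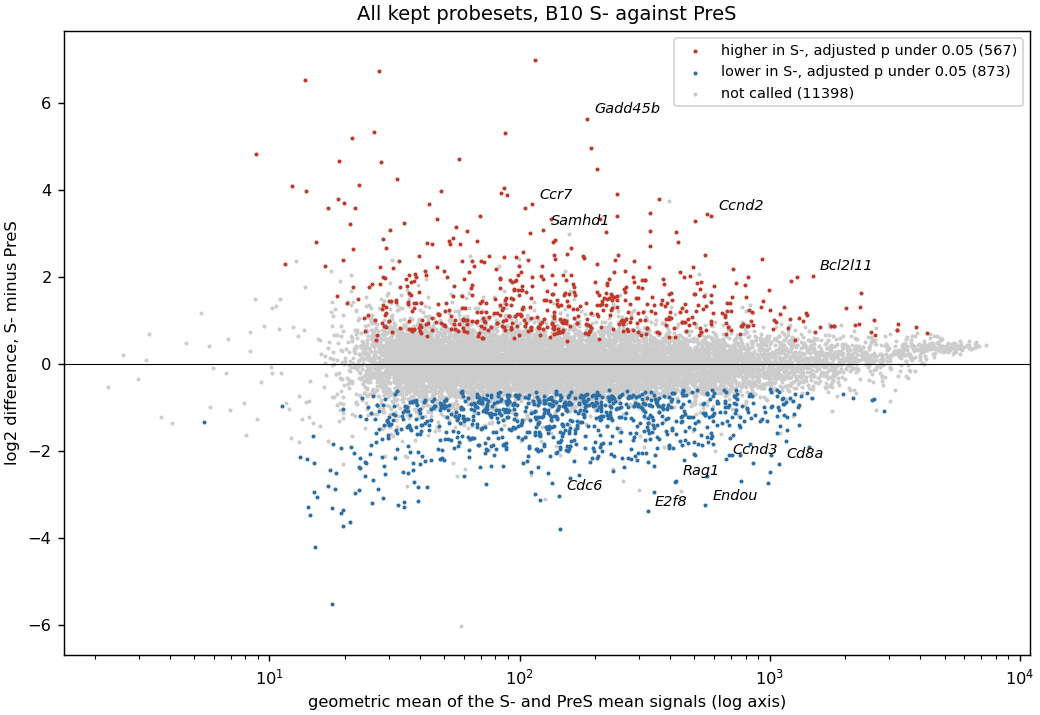
Each point is 1 of the 12838 kept probesets, with the geometric mean of the S- and PreS mean signals on a log x axis and the log2 difference, S- minus PreS, on the y axis. Coloured points passed an adjusted p of 0.05 in limma (567 higher and 873 lower in S-), and the largest differences above 0 (Gadd45b at 5.63) exceeded those below 0 (E2f8 at -3.39) among the genes written in the plot.

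The sort chose cells by surface proteins before any measurement of RNA. Cd8a, a chain of the CD8 coreceptor, had signals of 621, 403 and 437 in the S- pools, against 1809 to 3283 with a median of 2365 in the PreS pools. Cd8b1, the other chain, had 231, 159.9 and 127 in the S- pools, against 516 to 987 with a median of 676 in the PreS pools. The gate takes CD8low cells by surface protein, and its part in these mRNA signals was not tested. Cd4, the coreceptor both gates require, was at 181, 354 and 413 in S- pools and 206 to 368 in PreS pools (log2 difference 0.08 ± 0.29, where ± is the standard error from limma throughout). Cd69 had no kept probeset of its own and was not analysed here. Of 11 thymocyte markers on the array all 11 were kept, and their summed signal was 12337 to 17462 in S- pools and 14369.5 to 19781 in PreS pools. Among them Cd247 and Cd2, surface receptor chains, were called higher and Cd8a and Thy1 lower.

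The 12 largest rises and 12 largest falls were taken among called genes without overlap between the groups. Several of the largest rises in S- were in genes known to respond to antigen receptor, TNF receptor and NF-kB signals. Gadd45b, a stress-induced activator of MAP kinase cascades, gave signals of 978, 1207 and 1848 in the 3 S- pools, against 15.3 to 37.0 with a median of 27.2 in the 6 PreS pools (log2 difference 5.63 ± 0.29, adjusted p = 3.6e-07). Tnfrsf9 (4-1BB), a costimulatory receptor, gave 959, 889 and 1302 in S- pools against 9.8 to 48.3 with a median of 38.0 in PreS pools (log2 difference 4.95 ± 0.38, adjusted p = 5.5e-06). Rgs16, which speeds the switching off of G proteins, gave 403, 517 and 666 in S- pools against 4.9 to 26.6 with a median of 11.1 in PreS pools (log2 difference 5.30 ± 0.53, adjusted p = 3.7e-05). For each of these genes the lowest S- pool was several times above the highest PreS pool, and the PreS signals lay around or below 32, the limit of the filter on low signals. Bcl3, a nuclear IkB protein that binds NF-kB dimers, was at 112, 200.3 and 121 in S- pools and 1.0 to 12.7 with a median of 3.1 in PreS pools (log2 difference 5.33 ± 0.70, adjusted p = 2.5e-04), and Irf4, a transcription factor induced through the antigen receptor, at 253, 287 and 270.1 in S- pools against 3.2 to 24.9 with a median of 11.5 in PreS pools (log2 difference 4.70 ± 0.55, adjusted p = 1.2e-04). With every signal below 16 set to 16, the log2 differences were 3.04 for Bcl3, 3.87 for Irf4, 4.73 for Rgs16 and 5.65 for Gadd45b, so the sizes of the Bcl3, Irf4 and Rgs16 rises rest in part on PreS signals below 16. With the hybridization day as a block the adjusted p of Bcl3 was 0.078 and that of Gpr83, given next, 0.0576.

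Surface and structural genes followed among the 12 largest rises. Tnfrsf4 (OX40), a costimulatory receptor of activated T cells, gave 1004, 1317 and 1788 in S- pools against 76.5 to 117 with a median of 95.9 in PreS pools (log2 difference 3.79 ± 0.22, adjusted p = 6.0e-07), and its PreS signals were well over the filter limit. Lad1 (ladinin 1), known from epithelial basement membranes, gave 827, 834 and 1332 in S- pools against 33.4 to 51.0 with a median of 41.9 in PreS pools (log2 difference 4.48 ± 0.25, adjusted p = 6.0e-07). Lmna, which encodes the A-type lamins of the nuclear envelope, gave 168, 246 and 182 in S- pools against 7.1 to 17.7 with a median of 11.4 in PreS pools (log2 difference 3.97 ± 0.34, adjusted p = 1.3e-05). By the rule that picked the 12, none of these 3 genes overlapped between the groups. Ctsw, the lysosomal protease cathepsin W, was at 936, 918 and 951 in S- pools and 23.9 to 97.7 with a median of 61.8 in PreS pools (log2 difference 3.91 ± 0.31, adjusted p = 6.5e-06). Cd7, a surface molecule of T cells, was at 102, 212 and 107 in S- pools against 3.2 to 20.2 with a median of 5.7 in PreS pools, and Gpr83, a receptor gene much used as a regulatory T cell marker, at 117, 145 and 124 in S- pools against 1.6 to 16.9 with a median of 4.6 in PreS pools. Bach2, a repressor that restrains effector genes, was at 319, 559 and 226 in S- pools against 9.1 to 29.6 with a median of 21.3 in PreS pools. The log2 differences of Cd7, Gpr83 and Bach2 were 4.24, 4.63 and 4.05, and with the floor at 16 they were 2.91, 2.91 and 3.94.

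**Figure D2:**
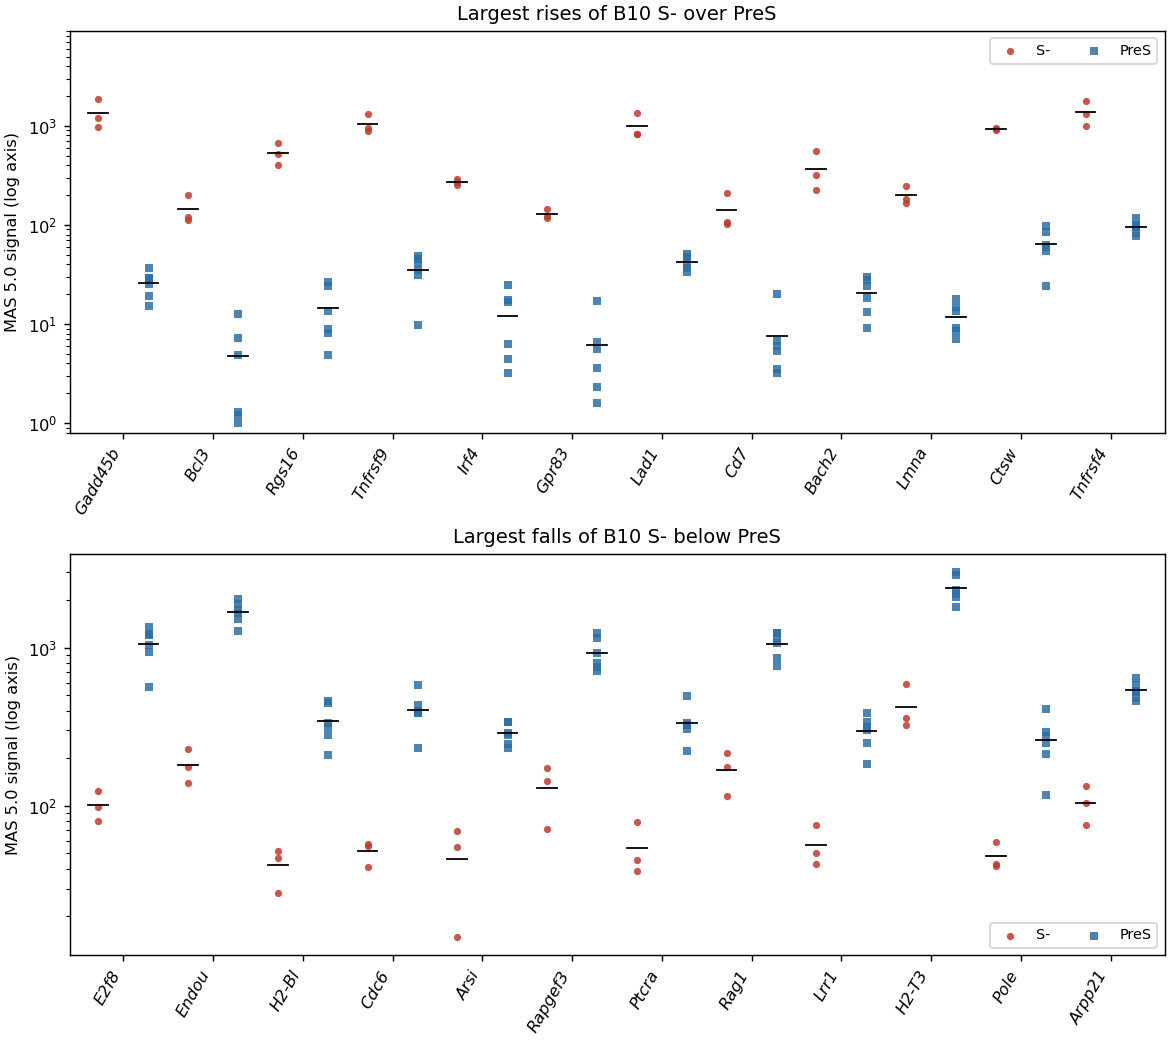
MAS 5.0 signals (log axis) of the 12 genes that rose most and the 12 that fell most, with 1 point per array, the 3 S- arrays to the left of the 6 PreS arrays for each gene and a bar at the mean of each group. The 24 genes were picked for having no overlap, so no S- point reaches the PreS points. Most PreS points of the risen genes lie below a signal of 100.

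The 12 largest falls held E2f8, Cdc6 and Pole of the G1/S and DNA replication list, Ptcra, Rag1 and Arpp21 of the double positive list, and 6 genes of neither. E2f8, an atypical E2F repressor of the cell cycle, gave 97.8, 80.7 and 125 in S- pools against 562 to 1339 with a median of 1118 in PreS pools (log2 difference -3.39 ± 0.39, adjusted p = 1.0e-04). Endou, a poly(U)-specific endoribonuclease, gave 227, 175 and 140.3 in S- pools against 1269 to 2035 with a median of 1688 in PreS pools (log2 difference -3.24 ± 0.26, adjusted p = 6.5e-06). Rapgef3, the cAMP-regulated exchange factor Epac1, gave 143, 71.8 and 172 in S- pools against 715 to 1232 with a median of 860.1 in PreS pools (log2 difference -2.94 ± 0.30, adjusted p = 3.7e-05). E2f8, Endou and Rapgef3 had PreS signals well over the filter limit, unlike most of the genes above that rose. H2-Bl and H2-T3, class Ib histocompatibility genes, fell by 3.11 and 2.48 on the log2 scale, and probes for this family can share sequence with its other members. Arsi, an arylsulfatase, and Lrr1, a leucine-rich repeat protein of a ubiquitin ligase, fell by 2.99 and 2.49. Cdc6, Pole, Ptcra, Rag1 and Arpp21 completed the 12 and are given with their groups below.

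The lists of genes that follow hold known members of each pathway, and for each the counts are of genes called in limma over all 12838 probesets. The median over all 7831 genes was 0.01, so a list with no shift would stand near 0. Over all genes 5.03% were called higher and 7.34% lower, the shares to set beside the count of each list. The lists were chosen with earlier results of these data known. The paper had already reported some members, such as Bim, as induced in negative selection on the same arrays. The count of a list therefore describes its members and is not an independent test of the pathway.

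**Figure D3:**
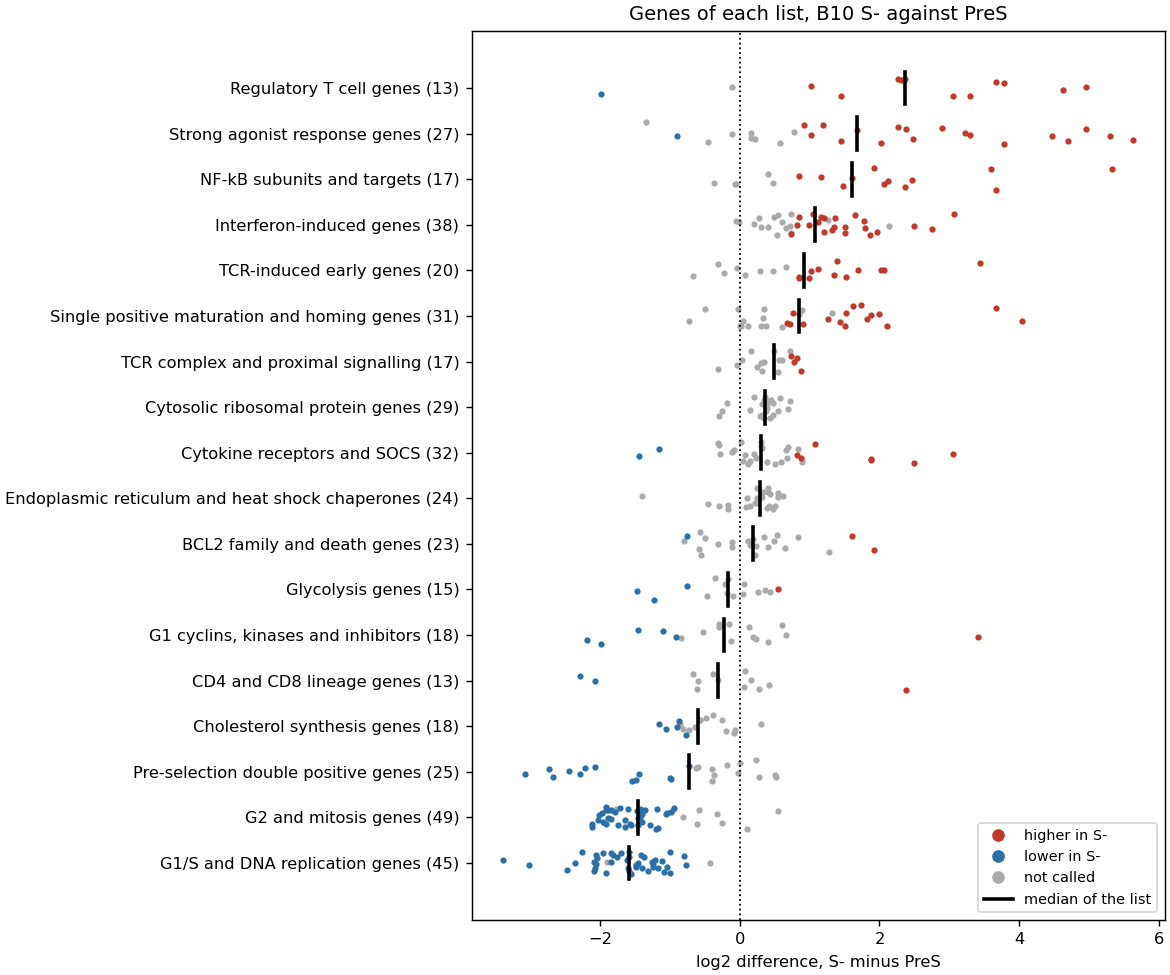
The log2 difference, S- minus PreS, of every kept gene of each list (number of kept genes in parentheses), coloured by its call, with the median of the list as a vertical bar and the median of all genes as a dotted line. The cell cycle lists (medians -1.45 and -1.58) lie left of 0 and the NF-kB, strong agonist and regulatory T cell lists (medians 1.61, 1.69 and 2.37) right of it.

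Genes that the antigen receptor induces within minutes to hours were higher in part. Of 20 kept genes of 28 listed, 12 were higher in S-, 0 lower and 8 not called, with a median log2 difference of 0.92 (same-day difference 0.72), beside 5.03% of all genes higher and a median of 0.01. Nr4a1 (Nur77), an orphan nuclear receptor whose level tracks receptor signal strength, gave 1623, 1876 and 1939 in S- pools against 80.7 to 226 with a median of 185 in PreS pools (log2 difference 3.44 ± 0.26, adjusted p = 5.5e-06). Dusp2, a nuclear phosphatase of MAP kinases, gave 1034, 1167 and 653 in S- pools against 130.3 to 422 with a median of 218 in PreS pools (log2 difference 2.02 ± 0.43, adjusted p = 0.00682). Nr4a1 had the largest rise of the list, and neither gene overlapped between the groups. Rel, the NF-kB subunit c-Rel, Fos, a subunit of AP-1, Dusp1, another MAP kinase phosphatase, and Ier2, an immediate early gene, rose by 2.06, 1.70, 1.39 and 1.34 on the log2 scale. Among the Egr family of zinc finger factors, Egr2 gave 439, 589 and 437 in S- pools against 85.7 to 379.8 with a median of 143 in PreS pools (log2 difference 1.52 ± 0.35, adjusted p = 0.0123), and Egr1, bright in both groups, gave 1593, 2567 and 1975 in S- pools against 836 to 1717 with a median of 1369.7 in PreS pools (log2 difference 0.67 ± 0.26, adjusted p = 0.133). Without S- replicate 2, 6 genes of the list were called, beside 233 in place of 394 higher calls over all genes, and the adjusted p was 0.0772 for Egr2 and 0.0584 for Ier2, while with the day as a block 2 genes were called.

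A CArG box, the site of serum response factor, occurs in promoters of Egr genes and is shown here for Egr2 because the list is defined by fast induction. Both strands of the RefSeq windows (GRCm38.p6, 250 bases before to 50 after a start) were searched, and the box was in 26.3% of 19 windows of 15 listed genes with a window, all of them windows of 2 genes, and in 1.6% of all 32851 windows. Here and below a match describes letters and no binding was measured. In the window below, 1 of 5 that RefSeq gives for Egr2, capitals mark the box.
Egr2 (chr10:67537316-67537615, plus strand): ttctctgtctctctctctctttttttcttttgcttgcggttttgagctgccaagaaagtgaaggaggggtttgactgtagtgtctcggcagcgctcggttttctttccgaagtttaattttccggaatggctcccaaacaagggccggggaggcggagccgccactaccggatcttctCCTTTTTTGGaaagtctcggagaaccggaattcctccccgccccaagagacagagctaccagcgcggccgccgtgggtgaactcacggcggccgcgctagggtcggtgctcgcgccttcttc

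Genes known to mark a strong, deleting signal were higher in most kept members. Of 27 kept genes of 32 listed, 18 were higher in S-, 1 lower and 8 not called, and the median log2 difference was 1.69 (same-day 1.62), with 1.59, 1.65 and 1.79 in S- replicates 1, 2 and 3. Bcl2l11, the BH3-only protein Bim that is needed for much thymic deletion, gave 2136, 2981 and 3333 in S- pools against 361 to 1412 with a median of 627 in PreS pools (log2 difference 2.03 ± 0.39, adjusted p = 0.00388). Its other, dimmer kept probesets were also called higher, by 2.13, 2.41, 2.26 and 2.54 on the log2 scale (limma adjusted p of at most 0.001). Tnfrsf18 (GITR), a costimulatory receptor, gave 1484, 1774 and 1489 in S- pools against 121 to 203 with a median of 163 in PreS pools (log2 difference 3.29 ± 0.19, adjusted p = 6.0e-07). Xcl1, the chemokine lymphotactin, gave 86.0, 81.6 and 171 in S- pools against 6.1 to 14.2 with a median of 11.4 in PreS pools (log2 difference 3.23 ± 0.34, adjusted p = 4.4e-05). The groups did not overlap for any of the 3 genes. With the day as a block 11 genes of the list were called, and the adjusted p of Bcl2l11 was 0.176 at its brightest probeset. Gadd45g, a relative of Gadd45b, gave 127, 168 and 175 in S- pools against 14.3 to 23.7 with a median of 19.4 in PreS pools, and Kit, the receptor of stem cell factor, 180.4, 169 and 204 in S- pools against 18.6 to 42.2 with a median of 31.9 in PreS pools. Pdcd1 (PD-1), an inhibitory receptor, gave 340.1, 381 and 325 in S- pools against 147 to 234 with a median of 175 in PreS pools (log2 difference 0.92 ± 0.22, adjusted p = 0.0141), and without S- replicate 2 its adjusted p was 0.0838. Id3, an inhibitor of E proteins, gave 714, 687 and 751 in S- pools against 595 to 772 with a median of 623 in PreS pools (log2 difference 0.15 ± 0.17, adjusted p = 0.614) and was not called. Slamf6, a receptor of the SLAM family, was the member that fell (68.6, 35.3 and 48.7 in S- pools against 55.3 to 108 with a median of 87.4 in PreS pools, log2 difference -0.90 ± 0.26, adjusted p = 0.0417), with overlapping groups and an adjusted p of up to 0.232 with single arrays left out.

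Part of the strong agonist list also differed between S- and S+, the cells of the same gate without HEL. In S- against S+, 122 genes (1.56%) were higher and 31 (0.396%) lower over all genes, and 11 of the 27 listed genes were higher and 0 lower, with a median of 1.06. As the list was chosen with earlier results of these data known, this count is not an independent test either. Gadd45b gave 978, 1207 and 1848 in S- pools and 171, 193 and 239 in S+ pools (log2 difference 2.75, adjusted p = 9.7e-04). Tnfrsf9 gave 959, 889 and 1302 in S- pools and 272, 247 and 328 in S+ pools (log2 difference 1.91, adjusted p = 0.0434). Irf4 gave 253, 287 and 270.1 in S- pools and 292, 317 and 335 in S+ pools, a log2 difference of -0.24 with an adjusted p of 0.943. Gadd45b and Tnfrsf9 thus lay between the PreS and S- values in S+ cells, while the 3 S+ values of Irf4 lay above the 3 S- values. Bcl2l11, at its brightest probeset, gave 2599, 2130 and 1150.2 in S+ pools, and its S- minus S+ difference of 0.61 had an adjusted p of 0.693. The paper's Bim candidates are other probesets of the gene, whose S+ values are not given here. The S- and S+ comparisons with PreS share the PreS arrays, so their values are given side by side only.

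Genes that carry out or block cell death were called at shares near those of all genes. Bcl2l11 was counted in the list above. Of 23 kept genes of 34 listed, 2 were higher, 1 lower and 20 not called (over all genes 5.03% were higher and 7.34% lower), with a median of 0.19. Fasl, the death ligand that binds Fas, gave 69.6, 45.3 and 123 in S- pools against 9.3 to 26.3 with a median of 17.4 in PreS pools (log2 difference 1.92 ± 0.34, adjusted p = 0.00214). Birc3, the inhibitor of apoptosis cIAP2 and an NF-kB target, gave 436, 682 and 1005 in S- pools against 151 to 300 with a median of 221 in PreS pools (log2 difference 1.61 ± 0.31, adjusted p = 0.00405). Bid, a BH3-only protein cut by caspase 8, was the one that fell (105, 93.5 and 119.7 in S- pools against 136 to 189 with a median of 168 in PreS pools, log2 difference -0.75 ± 0.19, adjusted p = 0.0225), and the call was lost without S- replicate 1 or 2 (adjusted p up to 0.115). Bcl2, the survival gene that rises with maturation, gave 104, 166 and 107 in S- pools against 58.5 to 96.1 with a median of 79.6 in PreS pools (log2 difference 0.53 ± 0.22, adjusted p = 0.149). Bax had no kept probeset of a single symbol and was not analysed here.

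NF-kB subunits and target genes were higher in most members. Of 17 kept genes of 22 listed, 12 were higher, 0 lower and 5 not called (median 1.61, same-day 1.46), and 7 were called with the day as a block. Of the subunits, Relb gave 292, 438 and 396 in S- pools against 15.5 to 42.1 with a median of 30.5 in PreS pools (log2 difference 3.60 ± 0.27, adjusted p = 5.2e-06), and Nfkb2, the precursor of p52, 250, 201 and 172 in S- pools against 20.2 to 56.3 with a median of 30.6 in PreS pools (log2 difference 2.47 ± 0.32, adjusted p = 2.4e-04). These are subunits of the alternative NF-kB pathway, and for both every S- pool lay above every PreS pool at the brightest probeset. The other, dimmer kept probeset of Nfkb2 was at 0.63 and was not called (mean signals 53.0 in S- and 30.4 in PreS, limma adjusted p = 0.184). Of the targets, Icam1, the adhesion ligand of LFA-1, gave 465, 515 and 530.2 in S- pools against 68.8 to 144 with a median of 115 in PreS pools (log2 difference 2.12 ± 0.21, adjusted p = 3.8e-05). Tnfrsf1b, a TNF receptor, gave 617, 639.6 and 709.5 in S- pools against 78.6 to 166 with a median of 129.6 in PreS pools (log2 difference 2.36 ± 0.24, adjusted p = 3.7e-05), and its other kept probeset, far dimmer, was at -0.11. Traf1, an adaptor of TNF receptors, rose by 1.48 on the log2 scale (adjusted p = 0.0141, and up to 0.0811 without S- replicate 1 or 2). Rela, the main subunit of the canonical pathway, was named after its value was seen, and stood at 493, 602 and 519 in S- pools and 394 to 739.6 with a median of 580.4 in PreS pools (log2 difference -0.06 ± 0.22, adjusted p = 0.9). In S+ cells Relb gave 188, 293 and 202 and Nfkb2 99.6, 169 and 133, and for both the S- minus S+ difference did not pass the threshold (adjusted p = 0.37 and 0.585).

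The kB consensus was found in 52.9% of the 17 windows of 14 listed genes with a window (9 windows, 7 genes), and in 4.5% of all windows. Bcl3 and Nfkb2 are printed because they are the risen members of the list with the largest differences among those whose window holds the letters. Capitals mark the matches, and in the Nfkb2 window, 1 of 3 for that gene, matches at neighbouring positions overlap.
Bcl3 (chr7:19822706-19823005, minus strand): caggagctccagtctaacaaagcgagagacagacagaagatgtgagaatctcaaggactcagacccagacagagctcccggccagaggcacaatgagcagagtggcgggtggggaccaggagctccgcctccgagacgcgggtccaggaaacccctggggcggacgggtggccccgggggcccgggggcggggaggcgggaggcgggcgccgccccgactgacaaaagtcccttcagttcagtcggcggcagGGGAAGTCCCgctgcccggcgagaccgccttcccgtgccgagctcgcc
Nfkb2 (chr19:46304487-46304786, plus strand): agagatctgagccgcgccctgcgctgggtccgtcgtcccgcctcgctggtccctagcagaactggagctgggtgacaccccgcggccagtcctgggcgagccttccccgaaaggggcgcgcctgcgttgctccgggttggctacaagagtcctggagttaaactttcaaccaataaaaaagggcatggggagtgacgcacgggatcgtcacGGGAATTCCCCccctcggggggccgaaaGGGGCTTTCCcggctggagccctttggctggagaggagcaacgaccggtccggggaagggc

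Genes of the unselected double positive cell fell or were not called. Of 25 kept genes of 30 listed, 0 were higher, 13 lower and 12 not called, with a median of -0.73 (same-day -0.85). The lower ones include Cd8a and Cd8b1, whose surface protein the gate reads. Rag1, a subunit of the recombinase that cuts antigen receptor genes, gave 175, 115 and 216 in S- pools against 759 to 1229 with a median of 1101 in PreS pools (log2 difference -2.68 ± 0.30, adjusted p = 7.9e-05). Rag2, its partner, gave 6.7, 3.4 and 25.3 in S- pools against 32.4 to 116 with a median of 56.7 in PreS pools (log2 difference -3.08 ± 0.60, adjusted p = 0.00381). Ptcra, the invariant pre-TCR alpha chain, gave 45.6, 38.7 and 78.9 in S- pools against 221 to 493 with a median of 326 in PreS pools (log2 difference -2.74 ± 0.33, adjusted p = 1.4e-04). Each S- pool lay below the lowest PreS pool for these receptor assembly genes, with S- replicate 3 nearest to it for Rag2. The S- signals of Rag2 were mostly below 16, and with a floor at 16 its log2 difference was -1.82. Dntt, the polymerase that adds N nucleotides, gave 159, 159 and 229.7 in S- pools against 226 to 713 with a median of 585 in PreS pools (log2 difference -1.55 ± 0.41, adjusted p = 0.0255), and its call was lost without S- replicate 1 or 2 or PreS TCR insHEL replicate 3 (adjusted p up to 0.107). The other, dimmer kept probesets of Dntt were called lower with smaller limma adjusted p-values (log2 differences -2.12 and -1.58, adjusted p = 4.45e-05 and 4.56e-04). Cxcr4, the chemokine receptor that holds cells in the cortex, gave 60.8, 51.2 and 42.7 in S- pools against 154 to 254 with a median of 233 in PreS pools (log2 difference -2.22 ± 0.23, adjusted p = 4.8e-05). Plxnd1, a semaphorin receptor of double positive cells, fell by 1.49 and Arpp21, a cAMP-regulated phosphoprotein, by 2.45 on the log2 scale. Ccr9, a receptor for the thymic chemokine CCL25, gave 1124, 1687 and 1911 in S- pools and 1267 to 2615 with a median of 1558 in PreS pools and was not called (log2 difference -0.03 ± 0.29, adjusted p = 0.967). With the day as a block 5 genes of the list were called.

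Among the lineage genes of CD4 and CD8 T cells, 1 of 13 kept genes was higher and 2, the CD8 chains, were lower. Zbtb7b (ThPOK), the factor that commits cells to the CD4 lineage, gave 129, 157 and 178 in S- pools against 6.8 to 61.4 with a median of 30.2 in PreS pools (log2 difference 2.38 ± 0.47, adjusted p = 0.00459). Gata3 and Tox, factors needed for CD4 development, were not called, with signals of 163, 281 and 178 and 179, 97.4 and 122 in S- pools against 191 to 395 with a median of 303 and 81.1 to 151 with a median of 123 in PreS pools. The log2 differences were -0.59 for Gata3 and 0.06 for Tox.

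Maturation and homing genes, which mark positive selection, were higher in about as many members as were not called. Of 31 kept genes of 39 listed, 16 were higher, 0 lower and 15 not called (median 0.84, same-day 0.84). Ccr7, the receptor that guides cells to the medulla, gave 401, 432 and 377 in S- pools against 17.3 to 51.7 with a median of 27.0 in PreS pools (log2 difference 3.67 ± 0.29, adjusted p = 6.4e-06). Il7r, the IL-7 receptor chain, gave 517, 279 and 374 in S- pools against 59.4 to 167 with a median of 97.0 in PreS pools (log2 difference 1.88 ± 0.31, adjusted p = 0.00119). Klf2, the factor that turns on S1pr1, gave 361, 566 and 353 in S- pools against 73.8 to 184 with a median of 116 in PreS pools (log2 difference 1.82 ± 0.27, adjusted p = 6.5e-04). Each S- pool lay above all PreS pools for these genes. S1pr1, the receptor for thymic exit, gave 159, 135 and 126 in S- pools against 28.7 to 59.7 with a median of 46.2 in PreS pools (log2 difference 1.50 ± 0.24, adjusted p = 9.8e-04). H2-K1, a classical class I molecule, Gimap4, a lymphocyte GTPase, and Ms4a4b, a membrane protein of mature T cells, rose by 2.11, 2.00 and 1.73 on the log2 scale. Ccr4, a receptor for medullary chemokines, gave 55.7, 53.6 and 55.7 in S- pools against 23.3 to 40.6 with a median of 26.7 in PreS pools (log2 difference 0.76 ± 0.19, adjusted p = 0.021) and was not called without any 1 of the S- pools (adjusted p up to 0.0834). Foxo1, which controls Klf2 and Il7r, gave 466, 662 and 433 in S- pools against 157 to 424 with a median of 298 in PreS pools (log2 difference 0.84 ± 0.31, adjusted p = 0.1) and was not called, while of its 2 other kept probesets 1 was called higher (log2 difference 0.74, adjusted p = 0.0266) and 1 was not (log2 difference 0.78, adjusted p = 0.0946). Without S- replicate 2, 11 of the list were called, and with the day as a block 6.

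Genes used to recognise regulatory T cells were higher in all but a pair of kept members. Of 13 kept genes of 20 listed, 11 were higher, 1 lower and 1 not called (median 2.37, same-day 2.10), and several belong to the strong agonist list as well. Il2rb, the beta chain shared by the IL-2 and IL-15 receptors, gave 151, 212 and 152 in S- pools against 6.6 to 37.6 with a median of 27.2 in PreS pools (log2 difference 3.06 ± 0.49, adjusted p = 0.00102). Penk, the precursor of enkephalins, gave 128, 132 and 191 in S- pools against 3.1 to 23.4 with a median of 11.3 in PreS pools (log2 difference 3.67 ± 0.50, adjusted p = 3.2e-04). Ctla4, an inhibitory receptor, gave 111, 90.5 and 71.3 in S- pools against 33.5 to 48.1 with a median of 39.7 in PreS pools (log2 difference 1.02 ± 0.23, adjusted p = 0.0108), and lost its call without S- replicate 1 or 2 (adjusted p up to 0.0724). Il2ra (CD25), the alpha chain of the IL-2 receptor, gave 107, 101 and 118 in S- pools against 81.3 to 143 with a median of 105 in PreS pools (log2 difference -0.11 ± 0.20, adjusted p = 0.784), while its other kept probeset rose by 0.93 (adjusted p = 0.0267). Nrp1, a surface receptor of thymic regulatory T cells that is also a semaphorin receptor, was the member that fell (123, 97.9 and 97.3 in S- pools against 210.2 to 611 with a median of 481 in PreS pools, log2 difference -1.99 ± 0.31, adjusted p = 9.2e-04). Foxp3, the defining factor of the lineage, had no kept probeset of its own, and was not analysed here. With the day as a block 7 genes were higher and 1 lower.

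Interferon-induced genes were higher in S- cells in more members than were not called. Of 38 kept genes of 47 listed, 22 were higher, 0 lower and 16 not called, 28 had all S- pools above all PreS pools (8.10% of all genes did), and the median was 1.08 (same-day 1.19). Samhd1, a dNTP hydrolase that restricts viruses, gave 349, 372 and 384 in S- pools against 27.6 to 58.7 with a median of 44.3 in PreS pools (log2 difference 3.07 ± 0.22, adjusted p = 4.5e-06). Dhx58 (LGP2), a relative of the RNA sensor RIG-I, gave 154, 152 and 159 in S- pools against 14.6 to 36.8 with a median of 19.8 in PreS pools (log2 difference 2.76 ± 0.26, adjusted p = 2.5e-05). Ifi27l2a, a small interferon-induced membrane protein, gave 1155, 1515 and 1178 in S- pools against 168 to 435 with a median of 209 in PreS pools (log2 difference 2.49 ± 0.27, adjusted p = 6.6e-05). These 3 had the largest rises of the list and did not overlap. Irf7, the factor that amplifies the interferon response, rose by 1.87 (signals 497, 361 and 445 in S- pools against 76.9 to 142 with a median of 116 in PreS pools), and Parp14, an ADP-ribosyltransferase, by 1.96. Irf9, a DNA-binding factor of the interferon response, rose by 0.85 (adjusted p = 0.0268, and up to 0.131 when S- replicate 1 or 3 or PreS TCR insHEL replicate 3 was left out). Usp18, a deconjugase of ISG15, gave 284, 254 and 197 in S- pools against 90.2 to 191 with a median of 135 in PreS pools and was not called (log2 difference 0.74 ± 0.29, adjusted p = 0.135). Zbp1, a sensor of Z-form nucleic acid, rose by 1.36, and without S- replicate 2 its adjusted p was 0.0536. With the day as a block 8 genes of the list were called, and the median of the list between S- and S+ was -0.11, with 0 genes higher and 1 lower.

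The interferon-stimulated response element, searched as GAAANNGAA on both strands, was in 40.5% of 37 windows of 29 listed genes with a window and in 8.6% of all windows. Trim30a, an interferon-induced TRIM protein, and Ifit1, which binds viral RNA, are shown as the called members with the largest differences among those that hold the letters. Trim30a gave 1114, 1511 and 651 in S- pools against 177 to 561 with a median of 232 in PreS pools (log2 difference 1.79 ± 0.43, adjusted p = 0.0149), and Ifit1 gave 140.2, 148 and 299 in S- pools against 27.3 to 83.1 with a median of 53.7 in PreS pools (log2 difference 1.64 ± 0.43, adjusted p = 0.0247). Capitals mark the matches, and the first matches of Ifit1 overlap each other.
Trim30a (chr7:104446076-104446375, minus strand): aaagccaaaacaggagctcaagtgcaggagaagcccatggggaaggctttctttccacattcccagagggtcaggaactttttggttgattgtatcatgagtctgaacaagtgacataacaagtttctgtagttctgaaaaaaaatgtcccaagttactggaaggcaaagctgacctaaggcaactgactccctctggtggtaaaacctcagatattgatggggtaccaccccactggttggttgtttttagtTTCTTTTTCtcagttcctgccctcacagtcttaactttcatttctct
Ifit1 (chr19:34640639-34640938, plus strand): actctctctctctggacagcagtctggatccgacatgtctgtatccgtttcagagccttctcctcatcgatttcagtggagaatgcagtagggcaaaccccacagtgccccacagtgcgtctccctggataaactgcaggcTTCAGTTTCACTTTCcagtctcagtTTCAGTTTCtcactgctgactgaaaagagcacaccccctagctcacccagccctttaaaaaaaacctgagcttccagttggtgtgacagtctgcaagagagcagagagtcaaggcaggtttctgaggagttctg

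The receptor complex and its proximal enzymes, which the S- gate partly selects through 1G12, were mostly not called. Of 17 kept genes of 22 listed, 4 were higher and 0 lower (median 0.49, same-day 0.35), namely Cd247, the zeta chain, Fyn, a Src kinase, Ptprc (CD45), the phosphatase that activates Src kinases, and Lcp2 (SLP-76), an adaptor. Cd247 gave 1589, 1758 and 1322 in S- pools against 787 to 1005 with a median of 900.1 in PreS pools (log2 difference 0.82 ± 0.21, adjusted p = 0.024). Fyn gave 984, 1315 and 799 in S- pools against 402 to 891 with a median of 537 in PreS pools, and the groups overlapped (log2 difference 0.87 ± 0.26, adjusted p = 0.0427). The 4 adjusted p-values lay between 0.024 for Cd247 and 0.0449 for Lcp2, with 0 calls left without S- replicate 2 and 0 with the day as a block. Cd3e, an invariant chain of the complex, gave 802, 984 and 509.7 in S- pools against 426 to 920.3 with a median of 507 in PreS pools (log2 difference 0.32 ± 0.28, adjusted p = 0.534). Cd5, an inhibitory receptor whose level follows signal strength, gave 1817, 1581 and 2050.2 in S- pools against 1034 to 1389 with a median of 1275 in PreS pools (log2 difference 0.60 ± 0.19, adjusted p = 0.0575), so its groups did not overlap but it was not called.

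Cell cycle genes were lower in S- cells in most members. Of 49 kept genes of 52 listed for G2 and mitosis, 0 were higher, 40 lower and 9 not called, with a median of -1.45 and -1.22, -1.69 and -1.49 in S- replicates 1, 2 and 3. Cdk1, the kinase that starts mitosis, gave 393, 291 and 233 in S- pools against 738 to 1374 with a median of 1022 in PreS pools (log2 difference -1.79 ± 0.28, adjusted p = 8.8e-04). Aurkb, the kinase of the chromosomal passenger complex, gave 134, 92.3 and 80.2 in S- pools against 283 to 548 with a median of 419.9 in PreS pools (log2 difference -2.12 ± 0.25, adjusted p = 1.3e-04). Top2a, which untangles sister chromatids, gave 696, 645 and 627 in S- pools against 1385 to 2329 with a median of 1811 in PreS pools (log2 difference -1.43 ± 0.25, adjusted p = 0.00203). Every S- pool lay below every PreS pool for these genes, and every S- signal was above the filter limit. Birc5 (survivin), Plk1, a mitotic kinase, and Ccnf, a cyclin with an F box, fell by 1.92, 1.85 and 2.02 on the log2 scale. Cdc20, an activator of the anaphase-promoting complex, gave 833, 697 and 714 in S- pools against 1176 to 1804 with a median of 1678 in PreS pools (log2 difference -1.05 ± 0.27, adjusted p = 0.0222), and its call was lost without any 1 of the S- pools (adjusted p up to 0.0947). The other, dimmer kept probesets of Cdc20 were also called lower (log2 differences -2.50 and -0.94, limma adjusted p = 7.93e-04 and 0.0375). Mki67, the proliferation marker Ki-67, gave 744, 671 and 734 in S- pools against 922 to 1901 with a median of 1195 in PreS pools (log2 difference -0.81 ± 0.29, adjusted p = 0.0973), so it was lower in every S- pool but not called. The same-day median of the list was smaller, at -0.99, and with the day as a block the median was -1.26 with 2 genes called.

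Most mitotic genes were higher in S- cells than in S+ cells. Of the 49 genes, 35 were higher in S- than in S+ and 0 lower, with a median log2 difference of 1.61. Cdk1 gave 393, 291 and 233 in S- pools and 106, 44.9 and 70.5 in S+ pools (S- minus S+ 2.10, adjusted p = 0.00531). Top2a gave 696, 645 and 627 in S- pools and 266, 132 and 247 in S+ pools (S- minus S+ 1.69, adjusted p = 0.00936), and Aurkb 134, 92.3 and 80.2 in S- pools and 47.5, 29.0 and 44.0 in S+ pools (S- minus S+ 1.31, adjusted p = 0.0408). S- pools thus lay between the PreS and the S+ pools for these genes.

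Promoters of mitotic genes are known for a CCAAT box (CCAAT) and a cell cycle homology region (TTTGAA or TTCGAA). Both strands of the windows held the first in 71.1% of 45 windows of 42 listed genes with a window, against 37.4% of all windows, the second in 75.6% against 19.2%, and both in 64.4% against 7.5%. Bub1b, a kinase-like protein of the spindle checkpoint, and Cdca3, a trigger of mitotic entry, had the largest falls among called genes whose window holds both, and capitals mark either motif. Bub1b gave 141, 93.4 and 119 in S- pools against 413 to 560.3 with a median of 482 in PreS pools (log2 difference -2.11 ± 0.46, adjusted p = 0.00803, and 0.0505 without S- replicate 2). Cdca3 gave 174, 119.7 and 190.4 in S- pools against 559 to 708 with a median of 638 in PreS pools (log2 difference -2.03 ± 0.22, adjusted p = 6.9e-05), whereas its other kept probeset, near the low-signal limit, was at 0.14 and not called.
Bub1b (chr2:118597961-118598260, plus strand): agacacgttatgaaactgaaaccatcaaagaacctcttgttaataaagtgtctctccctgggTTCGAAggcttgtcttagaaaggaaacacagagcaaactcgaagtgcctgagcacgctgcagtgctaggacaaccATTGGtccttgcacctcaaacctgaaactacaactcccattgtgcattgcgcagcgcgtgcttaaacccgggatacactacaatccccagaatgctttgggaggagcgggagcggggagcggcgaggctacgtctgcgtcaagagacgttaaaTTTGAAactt
Cdca3 (chr6:124829926-124830225, plus strand): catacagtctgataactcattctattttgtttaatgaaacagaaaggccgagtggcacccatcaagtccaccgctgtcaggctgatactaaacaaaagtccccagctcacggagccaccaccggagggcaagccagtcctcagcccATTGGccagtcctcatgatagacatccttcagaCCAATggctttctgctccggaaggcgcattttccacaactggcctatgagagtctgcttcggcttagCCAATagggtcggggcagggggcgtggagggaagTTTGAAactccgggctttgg

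G1/S and DNA replication genes fell in all but 2 kept members. Of 45 kept genes of 50 listed, 0 were higher, 43 lower and 2 not called (median -1.58, same-day -1.27). Cdc6, which loads the MCM helicase at origins, gave 57.8, 55.8 and 41.1 in S- pools against 231 to 578 with a median of 391 in PreS pools (log2 difference -3.02 ± 0.38, adjusted p = 2.1e-04). Rrm2, a subunit of ribonucleotide reductase, gave 338, 307 and 532 in S- pools against 1462 to 2161 with a median of 1938 in PreS pools (log2 difference -2.26 ± 0.43, adjusted p = 0.00353). Pools of the groups did not overlap for these or for Mcm5, a helicase subunit, Cdc45, its activator, and Pcna, the sliding clamp, which fell by 1.85, 1.56 and 0.80 on the log2 scale. Pole, the catalytic subunit of DNA polymerase epsilon, gave 58.9, 43.0 and 41.7 in S- pools against 117 to 406 with a median of 262 in PreS pools (log2 difference -2.48 ± 0.61, adjusted p = 0.0175), and was not called without S- replicate 2 or 3 (adjusted p up to 0.0727). The members not called were Mcm2, another helicase subunit (595, 849 and 738 in S- pools against 795 to 1341 with a median of 945 in PreS pools, log2 difference -0.42 ± 0.52, adjusted p = 0.666), whose other kept probeset was called lower (log2 difference -1.32, adjusted p = 0.00798), and Uhrf1, a reader of hemimethylated DNA that was singled out here after its value was seen (log2 difference -1.91 ± 0.93, adjusted p = 0.224). In S- against S+, 8 of the 45 were higher and 0 lower (median 0.83). With the day as a block, 10 genes were called and the median was -1.45.

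E2F sites were searched as TTTGGCGC, TTTCGCGC or TTTCCCGC, and were found in 32.6% of 46 windows of 38 listed genes with a window and in 1.8% of all windows. Cdc6 and Cdt1, which load the helicase together, are shown as the most fallen called members whose window holds one, in capitals. Cdt1 gave 262, 255 and 534 in S- pools against 1098 to 1805 with a median of 1415 in PreS pools (log2 difference -2.08 ± 0.32, adjusted p = 8.0e-04).
Cdc6 (chr11:98907901-98908200, plus strand): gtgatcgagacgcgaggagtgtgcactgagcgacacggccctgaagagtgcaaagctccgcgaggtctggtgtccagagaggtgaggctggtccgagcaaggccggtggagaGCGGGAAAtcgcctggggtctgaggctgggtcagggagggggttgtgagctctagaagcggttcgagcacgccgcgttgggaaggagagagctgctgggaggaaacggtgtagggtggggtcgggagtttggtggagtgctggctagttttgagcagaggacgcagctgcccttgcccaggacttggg
Cdt1 (chr8:122567765-122568064, plus strand): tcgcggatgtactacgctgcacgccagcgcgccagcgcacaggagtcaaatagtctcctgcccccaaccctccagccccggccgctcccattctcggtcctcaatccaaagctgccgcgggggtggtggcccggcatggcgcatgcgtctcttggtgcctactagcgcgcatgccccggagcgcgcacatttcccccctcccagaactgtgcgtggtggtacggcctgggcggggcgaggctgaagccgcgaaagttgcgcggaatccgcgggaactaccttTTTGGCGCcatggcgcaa

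**Figure D4:**
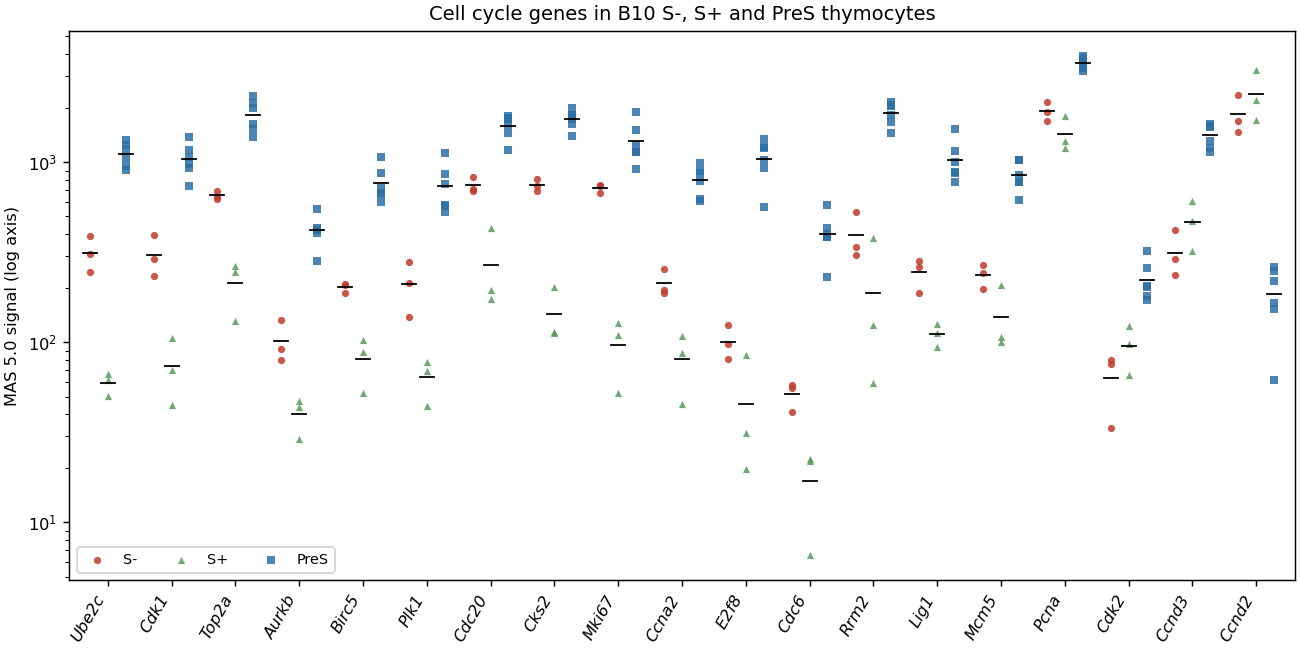
MAS 5.0 signals (log axis) of 19 cell cycle genes in the 3 S-, 3 S+ and 6 PreS arrays of the B10 strain, 1 point per array and a bar at each mean, with S- at the left and PreS at the right of each gene. Mitotic genes such as Cdk1 lie between the PreS and S+ points in S- cells, and Ccnd2 is the one that lies above PreS in both selected groups.

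The genes that govern entry to the cycle did not move one way. Of 18 kept genes of 20 listed, 1 was higher, 5 lower and 12 not called (median -0.22). Ccnd2, a D cyclin, gave 1465, 2365 and 1700.2 in S- pools against 61.9 to 262 with a median of 192 in PreS pools (log2 difference 3.41 ± 0.38, adjusted p = 7.2e-05). Ccnd3, the D cyclin of dividing double positive cells, gave 421, 289 and 235 in S- pools against 1142 to 1638 with a median of 1446 in PreS pools (log2 difference -2.19 ± 0.24, adjusted p = 6.9e-05). These related cyclins changed in opposite directions, and neither overlapped between the groups. Cdk2, the partner of cyclin E, gave 33.6, 80.3 and 75.9 in S- pools against 172 to 319.9 with a median of 204 in PreS pools (log2 difference -1.99 ± 0.31, adjusted p = 8.0e-04). Of the inhibitors, Cdkn1a (p21) fell by 1.45 (adjusted p = 0.0177, up to 0.083 without S- replicate 1 or 2) and Cdkn2c (p18) by 0.91, while Cdkn1b (p27) gave 104, 137 and 136 in S- pools against 72.6 to 126 with a median of 81.4 in PreS pools and was not called (log2 difference 0.41 ± 0.21, adjusted p = 0.243). Cdc25b, a phosphatase that activates cyclin-dependent kinases, fell by 1.09 and was not called without S- replicate 2 or 3 (adjusted p up to 0.0928).

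In the metabolic lists most kept genes were not called, but the lower calls were above the share of all genes (7.34% lower, 5.03% higher). For cholesterol synthesis, 0 of 18 kept genes were higher, 5 lower and 13 not called (median -0.61). Sqle, squalene epoxidase, gave 130.1, 125 and 112 in S- pools against 187 to 354 with a median of 268 in PreS pools (log2 difference -1.15 ± 0.22, adjusted p = 0.00391), and Cyp51, a demethylase of the pathway, 135, 170.2 and 132 in S- pools against 231 to 312 with a median of 292 in PreS pools (log2 difference -1.05 ± 0.17, adjusted p = 0.00104). The other calls, Lss, Fdft1 and Dhcr7, enzymes of the same pathway, had log2 differences of -0.90, -0.87 and -0.77 and adjusted p-values of up to 0.209, 0.0874 and 0.126 with single arrays left out, and 2 calls of the list were left without S- replicate 2. For glycolysis, 1 of 15 was higher and 3 were lower (median -0.17). Slc16a1, a lactate carrier, gave 203, 182 and 227 in S- pools against 322 to 760.3 with a median of 664 in PreS pools (log2 difference -1.47 ± 0.31, adjusted p = 0.00667). Tpi1, Pfkl and Aldoa, enzymes of the pathway, stood at -1.23, -0.76 and 0.55 on the log2 scale, and leaving out single arrays raised their adjusted p to as much as 0.101, 0.127 and 0.198. Ldha, Slc2a1 and Hk2, a dehydrogenase, the glucose carrier GLUT1 and a hexokinase, were not called (0.06, -0.10 and -0.19).

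None of 29 kept ribosomal protein genes or 24 kept chaperone genes of the endoplasmic reticulum and the heat shock response was called in either direction by limma, with medians of 0.36 and 0.28. At an unadjusted p under 0.05, 5 ribosomal and 3 chaperone genes were higher and 0 and 1 lower. The ribosomal median differed between the S- pools (-0.07, 0.65 and 0.49 in S- replicates 1, 2 and 3), and the median of the list was 0.23 with the authors' scaling only and 0.00 with quantile normalization, under which 1 ribosomal gene was called higher. Rpl4 gave 4353, 6769.9 and 5658 in S- pools against 4076 to 5549 with a median of 4559.8 in PreS pools, and Hspa5 (BiP), the main chaperone of the endoplasmic reticulum, 2377, 3394 and 3123 in S- pools against 1462 to 2522 with a median of 2109 in PreS pools. Of cytokine receptors and their signalling genes, 7 of 32 were higher and 2 lower (median 0.31), beside 5.03% higher and 7.34% lower over all genes. Cish, a feedback inhibitor of STAT5 signals, gave 516, 525 and 751 in S- pools against 74.9 to 138 with a median of 100.4 in PreS pools (log2 difference 2.49 ± 0.23, adjusted p = 2.3e-05). Jak2 and Pim2, kinases of cytokine signalling, rose by 1.88 and 1.08 on the log2 scale. Ifngr1, the ligand-binding chain of the interferon gamma receptor, gave 371, 249 and 391 in S- pools against 596 to 1292 with a median of 945 in PreS pools (log2 difference -1.45 ± 0.26, adjusted p = 0.00246), and Socs3, another feedback inhibitor, 42.5, 43.8 and 74.3 in S- pools against 47.3 to 140.4 with a median of 134 in PreS pools, with overlap (log2 difference -1.16 ± 0.33, adjusted p = 0.0398, and up to 0.165 with single arrays left out). Socs1 and Pim1 were not called (0.69 and -0.29).

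Markers of other thymic cells were read beside these lists. B cell markers summed to 1806 to 2994 in S- pools and 3510 to 4873 in PreS pools, with 0 of 7 kept genes higher and Cd79b and Ighm lower. Most of the sum was Ighm alone, with means of 1876 in S- and 3492 in PreS pools. Cd79a, Ms4a1, Blk, Cd22 and Spib were far dimmer and not called. NK and NKT markers summed to 464 to 651 in S- pools and 182 to 309 in PreS pools, with Nkg7 and Il2rb higher among 3 kept genes. Myeloid and dendritic cell markers overlapped (2535 to 6543 in S- pools, 2550 to 5825 in PreS pools), and Ctss was called higher among 16 kept. Thymic epithelial markers summed to 325 to 438 in S- pools and 325 to 377 in PreS pools with Cldn4 called lower, and Aire, which defines the medullary epithelium that shows HEL, was at 18.2 to 26.9 in S- pools and 3.1 to 30.4 in PreS pools. Erythroid markers and those of double negative and gamma delta cells overlapped in their sums (120 to 161 and 954 to 1250 in S- pools, 94.2 to 365 and 851 to 1456 in PreS pools), with Cd44 and Kit called higher among those of double negative and gamma delta cells. Il2rb, Kit and Cd44 are also members of lists above, and the part of other cells in their rises was not tested. The 3 prime to 5 prime ratio of the Gapdh control, which rises as RNA degrades, was 2.19, 4.52 and 10.4 in the S- pools and 2.31 to 7.81 in the PreS pools. It was 3.15, 3.98 and 29.4 in B10 S+ pools, 2.90 to 12.9 in NOD S- pools and 2.99 to 28.9 in NOD PreS pools. The ratio of the actin control was 1.81, 2.04 and 2.94 in the S- pools and 1.74 to 5.79 in the B10 PreS pools. Their part was not tested beyond a fit with the mean of both log2 ratios as a covariate. In that fit all 111 called named genes stayed called.

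The same contrast in the NOD strain used other arrays (3 S- and 6 PreS). The median S- minus PreS difference in NOD was 1.19 for the strong agonist list (1.69 in B10), 1.64 for NF-kB (1.61 in B10), 1.43 for interferon-induced genes (1.08 in B10) and -1.89 for G2 and mitosis (-1.45 in B10). The difference between the strains was tested as an interaction, NOD change minus B10 change, over all 24 arrays, and passed an adjusted p of 0.05 for 4 genes with a more positive change in NOD (0.0511%) and 3 with a more negative one (0.0383%). Lad1 was the one called member of the gene lists. Its NOD S- pools gave 66.1 to 79.5 against 31.6 to 53.2 in NOD PreS pools, so the log2 difference was 0.64 in NOD and 4.48 in B10 (interaction -3.83, adjusted p = 4.3e-07). For Bcl2l11, Nr4a1 and Gadd45b the NOD differences were 1.66, 3.72 and 4.92, beside 2.03, 3.44 and 5.63 in B10, and the interactions did not pass (adjusted p = 0.815, 0.793 and 0.538). These are the brightest probesets, and no other kept probeset of Bcl2l11 passed the interaction test. The paper describes Bim induction in NOD thymocytes as undetectable, for a pattern that is defined with S+ cells as well. Its Bim candidates are other probesets, whose NOD values are not given here, so the differences from PreS above do not test that statement.

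**Figure D5:**
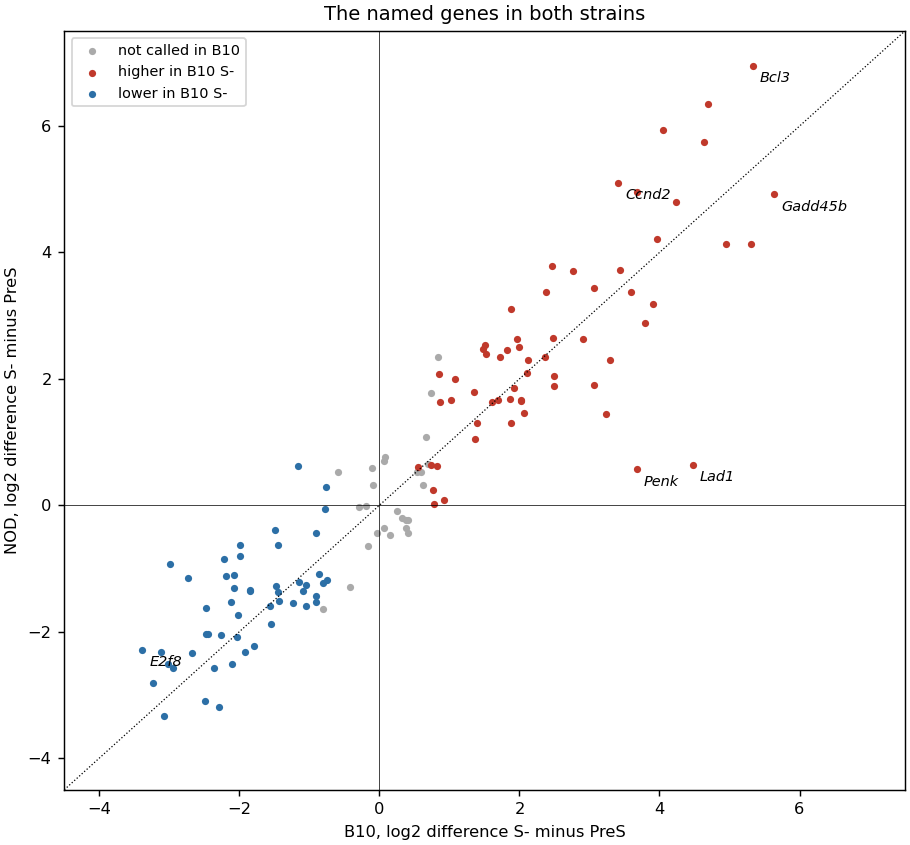
Each point is 1 of the 137 named genes, with the log2 difference of S- minus PreS in B10 on the x axis and in NOD on the y axis, and equal change along the dotted line. Lad1 (4.48 in B10, 0.64 in NOD) lies farthest below the line, and E2f8 (-3.39 in B10, -2.29 in NOD) is among the genes low in both.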

How the data were processed

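RNA of sorted thymocyte pools was amplified in 2 rounds and hybridized to Affymetrix 430A arrays. The authors deposited MAS 5.0 signal values, scaled to a trimmed mean of 150 per array, for 22690 probesets. Detection calls were not used here.

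The 64 control probesets were removed, 33 signals of 0 were set to 0.1, and log2 values of each array were brought to a common mean and variance. A probeset was kept (12838) where some condition of the 8 in the series had its 3 arrays all at 32 or above. Symbols came from the platform annotation (20380 probesets with 1 symbol, 691 with several, 1555 with none), and the probeset of highest mean signal stood for each of 7831 genes. S- minus PreS was a limma contrast (3.58.1, R 4.3.3) over the 12 B10 arrays, Benjamini-Hochberg adjusted over the kept probesets, and the strain interaction used all 24 arrays. The median residual SD was 0.36 on the log2 scale, and the number of arrays limits the precision. On simulated arrays with the means and residual spreads of this comparison, 42 of 100 probesets changed by 1 on the log2 scale and 92 of 100 changed by 2 were called, beside 7 unchanged ones. The noise was normal and independent, with no effect of the day, and far fewer probesets were changed than were called in the real data. The adjustment depends on that share, so these recoveries need not hold for the real contrast.

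The members and gene lists were chosen with earlier results of these data known. The 137 named genes are the 12 largest called rises and falls with no overlap between groups and a mean signal of at least 100 in the higher group, the core genes of each list, and up to 4 further called members in each direction per list. Alternatives covered scaling, the signal filter, a floor, hybridization day, replicate number and the mean log2 ratio of the Gapdh and actin controls. They also covered array weights, which arrays entered, an unmoderated test and single arrays left out. Promoter windows were from RefSeq (GRCm38.p6).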

Additional observations from a re-analysis of the deposited data

Results flagged for a closer look

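In 9 of 164 genes examined 1 of the 6 PreS arrays stood far from the others by Dixon's test, and chance alone marks about 1 in 20 groups in this way. Signals in PreS TCR replicate 3 were 9.8 for Tnfrsf9 (the other 5 arrays 31.4 to 48.3), 434.6 for Ifi27l2a (the others 168.0 to 215.8), 60.3 for Hk2 (the others 130.7 to 184.6) and 55.9 for Cbfa2t3, a corepressor of the ETO family (the others 157.9 to 241.8). In PreS TCR replicate 1 they were 204.0 for Slc2a1 (the others 60.9 to 94.3) and 4.6 for Niban1 (the others 17.5 to 27.2), and in PreS TCR replicate 2 Cd7 stood at 20.2 (the others 3.2 to 6.7). In PreS TCR insHEL replicate 2 the signals were 1033.7 for Cd5 (the others 1179.5 to 1388.5) and 226.4 for Dntt (the others 463.3 to 712.6).

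The change between S- and PreS differed between the strains, NOD change minus B10 change, in 13 probesets over all 24 arrays (limma, 1581 at an unadjusted p under 0.05). The interaction was -3.83 for Lad1 (adjusted p = 4.28e-07), -3.87 for Tnni1, a troponin of slow muscle (adjusted p = 1.56e-05), and -2.95 for Myo6, an unconventional myosin (adjusted p = 0.0134). It was 1.83 for Adgrg3, an adhesion G protein-coupled receptor (adjusted p = 0.00646), 2.31 for Rnf157, a ubiquitin ligase (adjusted p = 0.0284), and 2.44 for Atp6v0e2, a subunit of the vacuolar proton pump (adjusted p = 0.0328). In B10 the 3 signals of Atp6v0e2 in S- pools were 2.8, 3.4 and 5.0, against 4.5 to 13.0 with a median of 7.7 in PreS pools, all below the signal limit of 32. The Tnni1 signals were also below it on all S- and PreS arrays but those of B10 S-, and with signals below 16 set to 16 the B10 difference was 1.66, against 4.08 without that floor. Myo6 was below 32 on every NOD array compared, at 7.7 to 18.8 in S- pools and 12.6 to 15.5 in PreS pools. Its B10 PreS pools were at 35.9 to 90.1, so the change of Myo6 in NOD was read near the floor only.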

How the results depend on the processing

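The calls in B10 S- against PreS (567 probesets higher, 873 lower) were most reduced with the hybridization day as a fixed block (154 higher, 147 lower), a fit in which 1 day holds both groups, and in which 55 of the 111 called named genes stayed called. With PreS arrays of TCR insHEL mice only there were 375 and 517, with those of TCR mice only 338 and 428 (3 PreS arrays in either fit), and with array weights 1012 and 1369. Leaving out single arrays gave 325 to 573 higher and 525 to 817 lower, lowest without S- replicate 2. The other settings stayed within 1.5 times. The replicate number as a block gave 603 and 882, but same-numbered arrays did not deviate together (correlations from -0.303 to 0.048), so the numbers do not pair the pools. No probeset turned from one called direction to the other under these settings. Of 137 named genes 111 were called, 84 of them in every fit with 1 array left out and 54 under every alternative, while 111 kept their sign. A gene's other kept probeset turned the sign to -0.11 for Tnfrsf1b, 0.93 for Il2ra, 0.14 for Cdca3 and 0.19 for Fignl1, and, with neither probeset called, -1.01 for Hsp90b1 (0.25 at its main probeset) and 0.04 for Ccr9 (-0.03). The cause was not tested. Of 68 other probesets of called named genes 46 had the same call, 20 were not called with the same sign and 2 not called with the opposite sign. Signals near or below 32 limit the size of the rises whose PreS values lie there.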

Other observations

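Further genes were named after their values were seen, as the called genes of largest difference outside the lists. They had to show no overlap between the groups and a mean signal of at least 100 in the higher group. C1qtnf12, a secreted C1q and TNF related protein, gave 1188, 1046 and 1083 in S- pools against 72.4 to 135 in PreS pools (log2 difference 3.46). Rora, a nuclear receptor, gave 269, 493 and 576 in S- pools against 29.7 to 48.6 with a median of 39.8 in PreS pools (log2 difference 3.34), and Tnfsf11 (RANKL), a TNF family ligand that acts on medullary epithelium, 141, 159.5 and 127 in S- pools against 15.0 to 29.5 with a median of 15.9 in PreS pools (log2 difference 2.75). By that rule no PreS pool reached the S- pools for these genes. Tesc, a calcium-binding regulator of a proton exchanger, rose by 3.02 and Tnfrsf25 (DR3), a death domain receptor, by 2.86 on the log2 scale. The rises of Niban1, Pdzk1ip1, Gng2, a G protein gamma subunit, Ctla2a, a protease inhibitor, Eno3, an enolase, and Phxr4 were 3.16, 3.00, 2.78, 2.49, 2.49 and 2.83, and Phxr4 lost its call without any 1 of the S- pools.

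Among the falls, Notch3, a Notch receptor of early thymocytes, gave 76.1, 80.5 and 129 in S- pools against 185 to 677 with a median of 509 in PreS pools (log2 difference -2.15), and Ly6d, a GPI-anchored surface protein, 150, 104 and 125 in S- pools against 369 to 1189.7 with a median of 437 in PreS pools (log2 difference -2.18). Tacc3, a protein of the mitotic spindle, gave 88.8, 76.2 and 70.6 in S- pools against 286 to 408 with a median of 353 in PreS pools (log2 difference -2.23). The same rule set all 3 S- pools below every PreS pool for each. Mxd3, a MYC antagonist family member, Zwilch, a kinetochore protein, Stil, a centriole protein, and Syce2, a synaptonemal complex protein, fell by 2.24, 2.13, 2.27 and 2.21 on the log2 scale, and Stil lost its call without S- replicate 2.

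Lad1 and Tnni1 are neighbours on chromosome 1, 7608 bases apart with 0 genes wholly between them in the annotation. Tnni1 gave 46.0, 47.7 and 70.8 in B10 S- pools against 1.4 to 3.4 with a median of 3.0 in B10 PreS pools. In NOD the signals of Tnni1 were 2.8 to 4.7 in S- pools and 1.3 to 5.0 in PreS pools. Of 6 kept probesets of Ccnd2, 1 passed the interaction test, at 2.37 (adjusted p = 0.0172), and Dtx1, a Notch-regulated ubiquitin ligase, one of 2.51 (adjusted p = 0.0242).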
